A study of Arabidopsis thaliana with 12 samples.

Results

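The data described here are the response of wild type Arabidopsis thaliana shoots to trans-zeatin (tZ), an active cytokinin. They consist of the 3 arrays labelled as tZ treatment of wild type and the 3 labelled as DMSO treatment of wild type, chosen by title, 6 of the 12 arrays of the study. Both groups were plants of the accession Col-0, kept upright on agar with Murashige and Skoog salts until they were 2 weeks old, and RNA came from their aerial parts. The tZ plants had been sprayed with 20 µM tZ for 1 h and the DMSO plants with 0.02% DMSO, the solvent, for 1 h. The other 6 arrays hold a mutant line under the same treatments, and enter here through the shared estimate of the spread and a test of whether the response differed. Nothing in the labels says that arrays of a group stand for separately grown plants, so p-values reflect array-to-array spread that may be technical only.

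Cytokinins are adenine-derived hormones that bind receptor histidine kinases at the membrane. The phosphate passes through phosphotransfer proteins to type-B response regulators, transcription factors that switch on target genes within minutes, among them the type-A response regulators, which feed back to dampen the signal. In shoots the pathway is known for promoting cell division at the meristem, chloroplast development and delayed senescence.

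Each array gave an MAS5 signal, a hybridisation intensity on a linear scale, for 22746 probe sets that are not controls. Signals were compared as log2(signal + 10) with limma, and a probe set was called at an adjusted p below 0.05. Changes are given on that scale as tZ over DMSO, so that 1 stands for a doubling of bright signals and the change of dim ones is understated. Arrays had medians between 33.9 and 35.7. Bacterial probe sets with no target in the samples, 27 of them, had a median signal of 0.900 and a highest of 11.2, which serves as the level of an absent transcript. Across probe sets, pairs of arrays within a group had r between 0.985 and 0.991, and pairs across the groups between 0.943 and 0.947.

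The control probe sets divided the 6 arrays in the same way as the treatment. The actin ratio of 5' to 3' signal was 0.289, 0.272 and 0.328 on tZ arrays, against 0.0453, 0.0554 and 0.0489 on DMSO arrays. The GAPDH ratio averaged 0.817 ± 0.0264 on tZ arrays and 0.264 ± 0.0343 on DMSO arrays, and the ubiquitin ratio 0.643 ± 0.0678 and 0.203 ± 0.00441 (SD, n = 3 each; exact permutation test, two-sided, p = 0.10 for each, the smallest that 3 arrays against 3 allow). The cre spike-in, added in equal amount by design, averaged 2699 ± 19.6 on tZ arrays and 4404 ± 195 on DMSO arrays, and bioB, bioC and bioD were also lower on every tZ array than on any DMSO array. The 25S rRNA signal was 33.0 ± 3.65 on tZ arrays and 59.9 ± 9.59 on DMSO arrays, while 5S rRNA overlapped (exact permutation p = 0.40). The set of arrays and the treatment cannot be told apart in any comparison that follows.

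**Figure D1:**
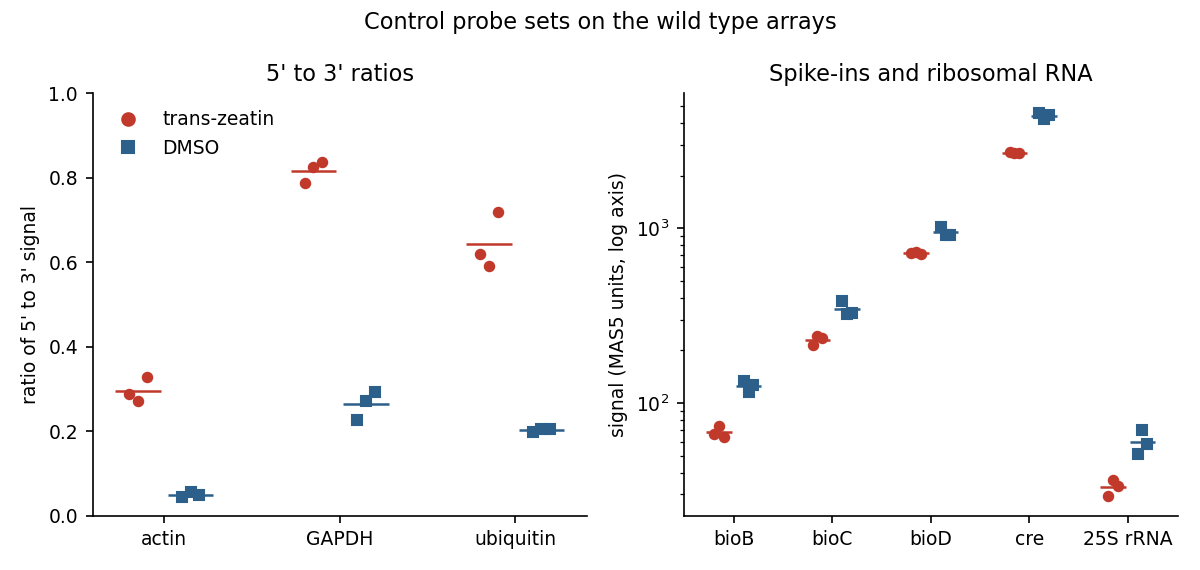
Control probe sets on the wild type arrays. Points are single arrays, red circles for trans-zeatin and blue squares for DMSO, and bars are means of 3 arrays. The left panel shows the ratio of 5' to 3' signal of actin, GAPDH and ubiquitin, and the right panel shows spike-in and 25S rRNA signals on a log axis. Ratios are higher and spike-in signals lower on every tZ array.

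Across the genome 9919 probe sets passed, 43.6% of those tested, of which 4145 (18.2%) were higher and 5774 (25.4%) lower with tZ. The median change over all probe sets was -0.08. Large changes were mostly rises. A change of at least 1 was called for 1972 probe sets (8.67%), with 1169 higher (5.14%) and 803 lower probe sets (3.53%), a change of at least 2 for 141 higher and 15 lower ones, and a change of at least 3 for 11 higher and 1 lower. The groups did not overlap for 11453 probe sets (50.4%), with every tZ array above for 4718 (20.7%) and below for 6735 (29.6%). Among the 6801 probe sets whose means in both groups lay at or below the absent-control maximum, 334 (4.91%) were called. With so large a share called, the count of any gene family is to be read against 18.2% higher and 25.4% lower. Among probe sets naming 1 gene, from which the families were drawn, the shares were 16.6% and 23.1%. The share called was larger at high signal: 419 of the 538 such probe sets with a mean above 500 over all 12 arrays were called. Counts in families of bright genes are to be read against that larger share.

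**Figure D2:**
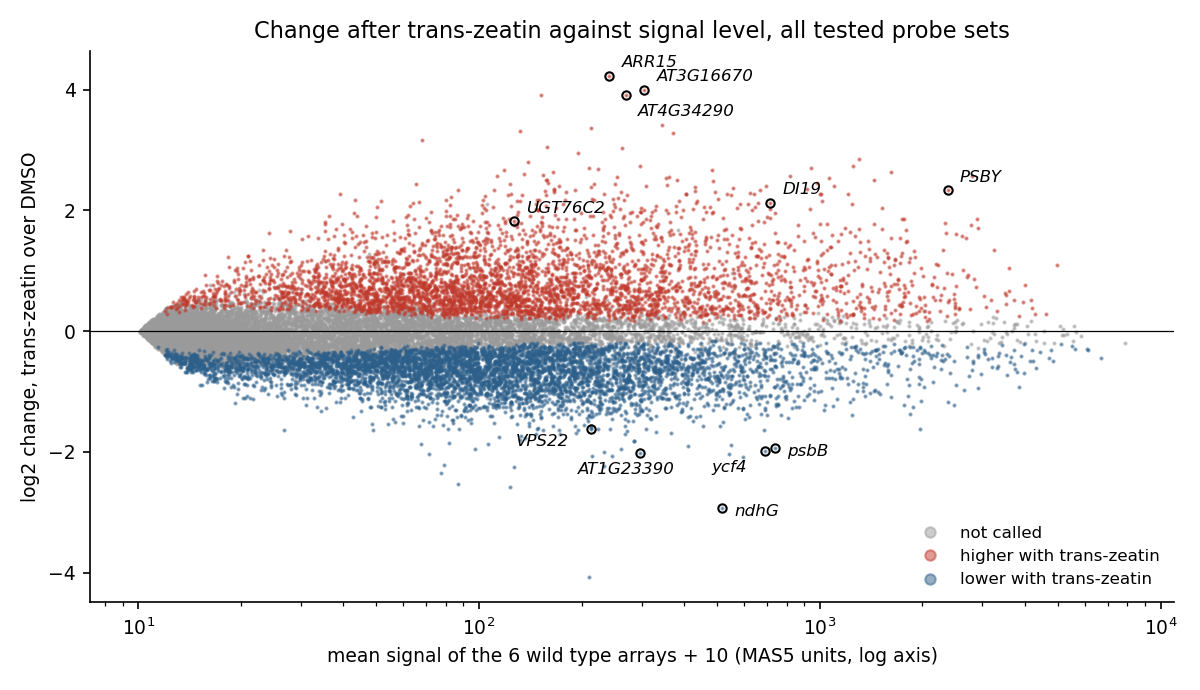
Change after trans-zeatin against signal level for the 22746 tested probe sets of wild type shoots. The horizontal axis is the mean signal of the 6 arrays plus 10 on a log axis, the vertical axis the log2 change of tZ over DMSO. Red points were called higher, blue ones lower and grey ones were not called. ARR15 lies at the top with a change of 4.23, and the plastid gene ndhG near the bottom with -2.93.

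Markers of the tissue were read first. The leaf genes RCA, which activates Rubisco, and LHCB4.1, a light-harvesting protein, gave signals of 4835 to 5618 and 4806 to 5346 on tZ arrays, and of 4696 to 5685 and 5095 to 5389 on DMSO arrays. The 4 measured shoot and leaf markers, with the stomatal lineage genes SPCH and FAMA, included no call. The root hair expansins EXPA7 and EXPA18 averaged 7.78 and 5.61 on tZ arrays and 7.76 and 4.19 on DMSO arrays, below the absent-control maximum. PYK10, a beta-glucosidase abundant in roots and also present in young shoots, read 508, 483 and 569 with tZ, against 639, 1101 and 771 with DMSO. It was called lower (-0.64, limma adjusted p = 0.012), but leaving out DMSO replicate 2 of wild type ended that call (adjusted p = 0.063), and so did centring each array within bins of gene length (adjusted p = 0.056). No vascular marker was measured by name. In whole shoots, fewer cells of a type and less RNA per cell cannot be told apart.

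Of 10 type-A response regulators 2 were measured by name, and both rose. ARR15 (AT1G74890) had the highest change of all probe sets. Its signal was 487, 407 and 446 with tZ, against 16.0, 18.9 and 9.10 with DMSO (log2 change 4.23, SE 0.14, limma adjusted p = 2.0e-10). The groups stood far apart, and 1 of the 3 DMSO arrays lay below the absent-control maximum, so the transcript was barely above background without added cytokinin. ARR16 gave 173, 178 and 183 with tZ, against 87.0, 85.3 and 84.3 with DMSO (0.98, SE 0.08, adjusted p = 1.8e-07). It was well above background in both groups, with little spread in either.

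Genes that conjugate or carry cytokinins moved in different directions. UGT76C2, an N-glucosyltransferase that inactivates cytokinins, gave 195, 172 and 192 with tZ, against 43.0, 47.9 and 46.5 with DMSO (1.82, SE 0.09, adjusted p = 2.9e-09). Its close relative UGT76C1, with the same activity, gave 52.2, 50.1 and 52.4 with tZ, against 79.1, 74.7 and 60.8 with DMSO (-0.40, adjusted p = 0.011). Neither gene's groups overlapped, one lying wholly above and the other wholly below its DMSO arrays. Another listed glucosyltransferase, UGT73C1, stayed under the absent-control maximum on all 6 arrays. AZG1, a purine transporter that also carries cytokinins, gave 42.7, 35.6 and 37.3 with tZ, against 9.40, 15.7 and 9.04 with DMSO (1.19, SE 0.16, adjusted p = 2.7e-05). Here 2 of the 3 DMSO arrays lay below the absent-control maximum. TINY2, an AP2/ERF transcription factor known as an early cytokinin target, gave 43.7, 31.0 and 27.0 with tZ, against 11.3, 17.4 and 18.4 with DMSO (0.76, adjusted p = 0.0012).

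The measured type-B regulators gave no usable level. ARR19 read 4.08, 2.51 and 5.03 with tZ, against 0.557, 4.80 and 1.60 with DMSO. ARR18 read 1.49, 0.717 and 0.909 with tZ, against 3.45, 11.4 and 6.97 with DMSO. The ARR18 means lay below the absent-control maximum in both groups, and a nominal call (limma adjusted p = 0.035) failed in 5 of the 6 fits that left out 1 array, passing only without DMSO replicate 1, with adjusted p up to 0.15. ARR22 and ARR23, response regulators of neither type, were likewise near zero signal. No probe set carried the name of a cytokinin receptor, a phosphotransfer protein, a cytokinin response factor or a cytokinin synthesis gene in the annotation used here, so these steps are not analysed here.

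**Figure D3:**
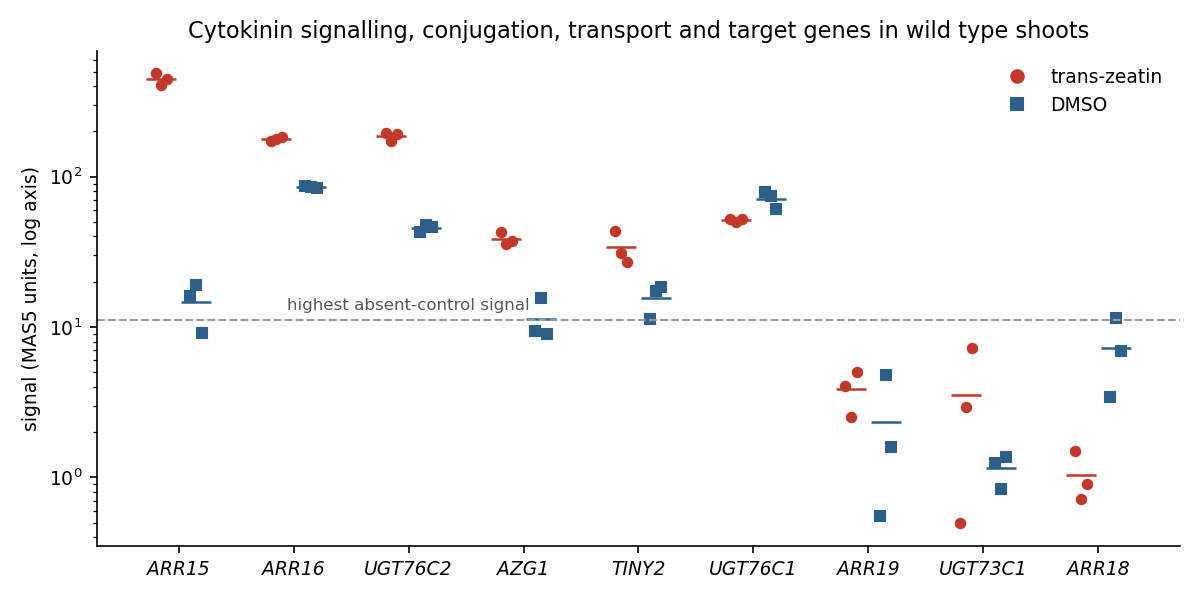
Signals of the 9 cytokinin-related genes measured by name, on a log axis. Red circles are the 3 trans-zeatin arrays, blue squares the 3 DMSO arrays, and bars their means. The dashed line is the highest absent-control signal, 11.2. ARR15, ARR16, UGT76C2, AZG1 and TINY2 lie higher with tZ and UGT76C1 lower, while ARR19, UGT73C1 and ARR18 lie mostly under the line.

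Of 11 auxin response genes 0 were higher and 2 lower, with a median change of -0.07, and 6 of the 11 lay above the absent-control maximum in at least 1 group. These counts did not exceed the 18.2% higher and 25.4% lower over all probe sets. IAA29, a repressor of the Aux/IAA family, gave 8.25, 3.81 and 9.05 with tZ, against 17.9, 23.5 and 15.3 with DMSO (-0.77, limma adjusted p = 0.0055). GH3.17, which joins auxin to an amino acid, gave 23.0, 28.3 and 17.3 with tZ, against 33.4, 51.4 and 37.9 with DMSO (-0.63, adjusted p = 0.0043). All tZ arrays lay below all DMSO arrays for both. GH3.3 of the same family was not called, at 51.6, 80.9 and 56.6 with tZ and 57.7, 62.9 and 56.0 with DMSO.

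None of the 3 auxin synthesis genes and none of the 4 gibberellin genes, the GID1 receptors and the F-box gene SLY1, was called by limma, with changes between -0.22 and 0.09 over these 7. Of the ethylene genes, EIN3, the main transcription factor of that pathway, was not called (0.10, 95% interval -0.06 to 0.27). RTE1, which acts with the receptor ETR1, was called higher (0.53, adjusted p = 0.029). That call was lost in 4 of the 6 fits that left out 1 array (wild type DMSO replicates 2 or 3, tZ replicates 1 or 3), with adjusted p up to 0.14.

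Defence genes were called in both directions. Of 6 jasmonate genes 1, PDF1.2b, was higher and 1, THI2.1, lower, against 18.2% and 25.4% over all probe sets. THI2.1 averaged 2.99 with tZ and 10.1 with DMSO, both below the absent-control maximum of 11.2. The DMSO mean was above the 9.46 reached on wild type arrays. Its call was lost without wild type DMSO replicate 2, tZ replicate 2 or tZ replicate 3, so it gives no reliable fall. The defensin gene PDF1.2b gave 369, 1484 and 340 with tZ, against 85.1, 174 and 68.0 with DMSO (2.39, SE 0.63, adjusted p = 0.0062). The second array of each group was the highest, and without wild type tZ replicate 2 the change was 1.72 (adjusted p = 0.034). PDF1.2, whose sequence is close enough for the probe sets to share signal, gave 254, 1391 and 213 with tZ and 102, 172 and 114 with DMSO, and was not called (adjusted p = 0.070). The other defensin-like genes called were LCR68, at 1310, 1194 and 1096 with tZ and 477, 466 and 451 with DMSO (1.35, adjusted p = 4.3e-09), and LCR69 (1.14). In all 3 of 13 defensin-like genes were higher and 0 lower, and 4 of the 13 rose above the absent-control maximum in at least 1 group. SAG101, a partner of the immune regulator EDS1, was lower (-0.75, adjusted p = 0.0036). WRKY53, a transcription factor of leaf senescence and defence, gave 25.9, 41.9 and 34.3 with tZ, against 79.6, 71.3 and 87.5 with DMSO (-1.04, adjusted p = 1.2e-04), the lowest change among 7 WRKY genes, of which 2 were lower and 0 higher.

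Cold and dehydration proteins were called in both directions, 5 higher and 3 lower of 16, with a median of 0.18. DI19, a drought-induced zinc finger protein, gave 1159, 1091 and 1205 with tZ, against 268, 294 and 208 with DMSO (2.13, SE 0.13, adjusted p = 1.3e-08). COR15A, a cold-induced chloroplast protein, gave 149, 202 and 201 with tZ and 111, 59.4 and 65.6 with DMSO (1.17, adjusted p = 0.0011). COR27, a cold gene tied to the clock, was lower (adjusted p = 0.0049), as was the clock gene GI, at 52.8, 62.3 and 65.0 with tZ and 96.0, 150 and 130 with DMSO (-0.94, adjusted p = 5.9e-04). Of 10 touch, wound and rapid stress genes 2 were higher, 2 lower and 6 not called, the last including ZAT10. The higher calls, CML42 and CML23, were both lost without DMSO replicate 3 (adjusted p = 0.060 and 0.055) and without tZ replicate 3 (0.052 and 0.073), and CML23 also without DMSO replicate 1 (0.10) or tZ replicate 1 (0.053). Of the lower ones, CML38 was lost without DMSO replicate 1 (0.12), tZ replicate 1 (0.13) or tZ replicate 2 (0.064), while WRKY53 was called in each of these fits. Both measured heat shock genes were not called.

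Among genes of shoot development the highest change was that of TCP15, a TCP factor that acts in leaf growth and cell proliferation. It gave 127, 93.9 and 93.9 with tZ, against 22.7, 25.3 and 32.4 with DMSO (1.64, SE 0.14, limma adjusted p = 3.4e-07). YAB5, a YABBY factor of the leaf's lower side, gave 101, 103 and 103 with tZ, against 30.6, 35.7 and 31.8 with DMSO (1.40, adjusted p = 7.1e-08), whereas YAB3 of the same family was not called (0.16, 95% interval 0.00 to 0.33). HAT2, a homeodomain factor, was higher (1.08). PHV, a homeodomain factor of the leaf's upper side, gave 132, 116 and 126 with tZ, against 200, 206 and 225 with DMSO (-0.71, adjusted p = 1.3e-04), and the leaf growth factor NGA1 was lower too (-0.68). Of the 18 organ growth and boundary factors only YAB5 and NGA1 were called, and 11 of the 18 were above the absent-control maximum in at least 1 group. CLV3, the stem cell peptide gene, was below that maximum in both groups.

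Histone and cytoskeleton genes split within their families. The histone H2B gene HTB2 gave 292, 265 and 254 with tZ, against 106, 103 and 134 with DMSO (1.18, adjusted p = 1.1e-07). The linker histone gene HON4 gave 191, 153 and 165 with tZ, against 293, 328 and 324 with DMSO (-0.86, adjusted p = 2.4e-06). Of 7 histone genes 3 were higher and 1 lower. Among the tubulins TUA6 was higher, at 1198, 1191 and 1357 with tZ and 529, 656 and 596 with DMSO (1.06, adjusted p = 1.5e-07), and so was TUB5 (1.03), while TUB1 was lower (-0.77) and TUB7 and TUB6 were within 0.01 of no change. The count was 3 higher and 2 lower of 7. The measured cell cycle genes, CDC27a and cdc2cAt, gave no call, and both had means at or near the absent-control level.

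Expansins, which loosen the cell wall, were called higher in 6 of 19 cases and lower in 1, and 12 were not called. Over all probe sets 18.2% were higher and 25.4% lower. The expansin median was 0.07, and 13 of the 19 were above the absent-control maximum. EXPA4 gave 182, 169 and 177 with tZ, against 35.5, 39.9 and 53.1 with DMSO (1.83, SE 0.12, limma adjusted p = 3.5e-08). EXPB3 gave 227, 170 and 167 with tZ and 34.8, 47.9 and 69.0 with DMSO (1.73, adjusted p = 1.2e-06). EXPA9 was called higher as well (1.14), but its DMSO mean of 8.92 lay below the absent-control maximum. The 1 lower member was EXLA1, an expansin-like gene, at 715, 1046 and 972 with tZ and 1923, 2301 and 1410 with DMSO (-1.03, adjusted p = 4.8e-04). EXPA8 was not called, at 33.2, 29.3 and 33.4 with tZ and 31.9, 25.9 and 33.0 with DMSO.

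Other wall genes were mixed. COB, a membrane-anchored protein needed to orient cellulose fibrils, gave 471, 546 and 563 with tZ, against 230, 247 and 206 with DMSO (1.17, adjusted p = 5.0e-08), while the cellulose synthase-like gene CSLD2 was lower (-0.64) and CSLC04 was not called. Of 10 xyloglucan transferases 3 were higher and 1 lower, among them XTH32, at 342, 300 and 326 with tZ and 234, 241 and 231 with DMSO (0.44, adjusted p = 3.9e-04). The lower call, XTH16, was lost without DMSO replicate 1 (adjusted p = 0.085) or tZ replicate 1 (0.10), and the higher call of XTH19 without DMSO replicate 3 (0.10), tZ replicate 2 (0.095) or tZ replicate 3 (0.074). The endoglucanase GH9B7 gave 399, 398 and 380 with tZ, against 948, 924 and 874 with DMSO (-1.20, adjusted p = 5.7e-09). Of 15 such genes 2 were lower and 0 higher, against 25.4% and 18.2% over all probe sets. The TBL family, which acetylates wall polysaccharides, had 9 members lower and 2 higher of 23, with a median of -0.23. Over all probe sets 25.4% were lower and 18.2% higher. The TBL genes had a median length of 2801 bp. Among nuclear probe sets for genes of 2720 to 3579 bp with a mean above 50, 47.8% were lower. TBL38 had the lowest change (-1.22) and TBL26 the highest (1.17). The higher count was 1 without DMSO replicates 1 or 3 or tZ replicates 1 or 2. The lower count was 7 without DMSO replicate 2 or tZ replicates 1 or 2. FER, a receptor kinase that senses the wall, was higher (0.48, adjusted p = 6.5e-04). The RALF and CLE peptide families, which include ligands of FER, had 6 members higher and 2 lower of 19. Over all probe sets 18.2% were higher and 25.4% lower. RALFL22 (1.01) and RALFL34 (0.89) were among the higher members. Of the RALF and CLE genes 1 was lower without DMSO replicates 1 or 2 or tZ replicates 1 or 3. Their higher count was 4 without DMSO replicate 2 or tZ replicate 3, and 5 without DMSO replicate 3 or tZ replicate 2. With centring by gene length it was 4 of the 17 covered.

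Chloroplast genes were called in both directions. The photosystem genes named in this paragraph had means above 500, a level at which 419 of 538 probe sets naming 1 gene were called. Among 7 nuclear light-harvesting and photosystem genes 2 were higher, 2 lower and 3 not called. PSBY, a small subunit of photosystem II, gave 4397, 3885 and 3555 with tZ, against 736, 813 and 783 with DMSO (2.33, SE 0.12, limma adjusted p = 4.4e-09). PSAN, a subunit of photosystem I, rose by less (0.95). PSBW of photosystem II gave 2780, 2628 and 2469 with tZ, against 3969, 3923 and 4103 with DMSO (-0.61, adjusted p = 1.9e-05), and LHCB4.3 was lower (-0.63). The subunits of 1 photosystem therefore did not move together in these arrays.

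All 6 genes for assembly and repair of photosystem II were called, 3 in each direction. Over all probe sets 43.6% were called, and 419 of the 538 that name 1 gene and have a mean above 500. PSB27, which binds the unfinished complex, gave 1916, 1805 and 2257 with tZ, against 642, 547 and 623 with DMSO (1.70, adjusted p = 4.6e-08). LPA2 (1.34) and LPA19 (0.89) were higher too. HCF101, an iron-sulfur protein better known for photosystem I, gave 551, 523 and 575 with tZ, against 1316, 1203 and 1161 with DMSO (-1.14, adjusted p = 1.1e-08). Nuclear genes of the plastid NADH dehydrogenase-like complex included NdhL, at 565, 551 and 544 with tZ and 142, 153 and 160 with DMSO (1.80, adjusted p = 1.7e-09), and PIFI, at 1104, 1206 and 1158 with tZ and 2690, 2381 and 2285 with DMSO (-1.08, adjusted p = 4.0e-08). Of 16 plastid RNA editing and splicing factors 2 were higher and 5 lower. CRR42 averaged 156 with tZ and 30.8 with DMSO, with no overlap (2.04), and CRR41 rose by 1.57, while CFM3B was lower (-0.84).

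Chlorophyll synthesis had 4 higher, 0 lower and 7 not called of 11, with a median of 0.08. HEME2, a uroporphyrinogen decarboxylase of the tetrapyrrole pathway, gave 790, 684 and 769 with tZ, against 362, 438 and 585 with DMSO (0.71, adjusted p = 0.0011), and HEMF2 was higher from a dim start (1.06). The calls of HEME1 (0.27) and CHLI2 (0.24) were lost in 4 and 2 of the 6 fits that left out 1 array, with adjusted p up to 0.17 and 0.058. The arrays that cost HEME1 its call were wild type DMSO replicates 1 and 2 and tZ replicates 1 and 3, and those for CHLI2 were DMSO replicate 2 and tZ replicate 2. PORB, the light-dependent enzyme of greening, was not called, at 1663, 1568 and 1618 with tZ and 1399, 1659 and 1470 with DMSO. In the Calvin cycle PRK rose (0.61), SBPASE was lower (-0.69), and RCA was not called.

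Of 69 plastid-encoded genes, all above the absent-control maximum, 16 were higher, 33 lower and 20 not called, with a median of -0.28 and a range of -2.93 to 1.50. Over all probe sets 18.2% were higher and 25.4% lower. Of those naming 1 gene with a mean above 500, 419 of 538 were called. The lowest was ndhG, at 119, 87.7 and 122 with tZ, against 961, 1011 and 730 with DMSO (limma adjusted p = 1.3e-05). psbN (-2.23), psbT (-2.04) and ycf4 (-1.99) followed. psbM and atpB were not called. Of 11 mitochondrially encoded genes 2 were higher, cox1 (0.81) and nad4 (0.75), and 4 were lower.

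Enzymes of carbon metabolism included several falls with little spread between arrays. The cytosolic isocitrate dehydrogenase gene cICDH gave 1420, 1532 and 1483 with tZ, against 3259, 3574 and 3570 with DMSO (-1.22, SE 0.07, limma adjusted p = 7.7e-09). SDH2-2, a subunit of succinate dehydrogenase, averaged 185 with tZ and 395 with DMSO, with no overlap (-1.05, adjusted p = 1.1e-07), and the mitochondrial isocitrate dehydrogenase genes IDH-VI (-1.01) and IDH-V (-0.80) were lower as well. Over 16 genes of the citrate cycle 4 were higher and 5 lower, with a median of -0.04. DPE1, which breaks down maltotriose from starch, was lower (-0.91), and APL3, a subunit of the enzyme that starts starch synthesis, was higher (0.90). The sugar transporter gene SWEET1 gave 169, 141 and 137 with tZ, against 45.6, 46.2 and 57.7 with DMSO (1.41, adjusted p = 5.7e-07), while SWEET2 was lower (-0.58) and SWEET11 was not called. Of the 19 sugar transporters 3 were higher and 3 lower.

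Enzymes of small-molecule conjugation and pigments included GSTU20, a glutathione transferase, at 2045, 1642 and 1867 with tZ, against 595, 595 and 569 with DMSO (1.64, adjusted p = 3.9e-09). Of 13 glutathione transferases 5 were higher and 2 lower. Among 49 UDP-glycosyltransferases 7 were higher, 7 lower and 35 not called, and UGT76C2 had the highest change of them. Among 22 cytochrome P450 genes 0 were higher and 5 lower. Over all probe sets 18.2% were higher and 25.4% lower, and neither the UDP-glycosyltransferases nor the P450 genes exceeded these shares. The P450 gene CYP71B22 gave 18.4, 35.1 and 18.9 with tZ, against 86.6, 84.1 and 97.0 with DMSO (-1.57, adjusted p = 2.3e-06). The flavonoid genes CHIL, at 313, 232 and 229 with tZ and 83.6, 70.9 and 68.7 with DMSO (1.66, adjusted p = 4.0e-07), and DFR, which commits flavonoids to anthocyanins (0.98, adjusted p = 1.6e-04), were higher, and UGT78D2 was not called. THX, a thioredoxin gene, was higher (1.26, adjusted p = 1.3e-08). Of 7 glutaredoxins and thioredoxins 3 were higher and 1 lower.

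Of 23 bZIP transcription factor genes 2 were higher, 7 lower and 14 not called, with a median of -0.27, against 18.2% higher and 25.4% lower over all probe sets. Without DMSO replicate 2 the higher count was 1. AT4G38900 gave 60.7, 67.4 and 60.2 with tZ, against 184, 173 and 187 with DMSO (-1.39, adjusted p = 1.2e-08). BZIP60, a factor of the endoplasmic reticulum stress response, gave 189, 229 and 209 with tZ, against 530, 462 and 393 with DMSO (-1.10, adjusted p = 4.6e-06), and BZIP28 of the same response was lower (-0.85), as was BZIP53 (-1.07). Of 11 bHLH genes 1 was higher and 4 lower, led by BIM1, a partner of brassinosteroid factors, at 71.2, 52.6 and 64.2 with tZ and 141, 186 and 166 with DMSO (-1.26, adjusted p = 1.0e-06). MYC4, a jasmonate factor, was lower too (-0.89). Of 42 MADS-box genes, 9 of them above the absent-control maximum, 2 were higher, AGL87 (1.27) and AT1G30260 (1.07), and 5 lower, or 3 lower without DMSO replicate 2 or tZ replicates 1 or 2.

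The PRA1 family, prenylated RAB acceptors of the secretory pathway, had 8 of 11 members higher and 0 lower, with a median of 0.62. Over all probe sets 18.2% were higher and 25.4% lower, shares that also apply to the other lists of this paragraph. The PRA1 genes had a median length of 1016 bp. Among nuclear probe sets for genes of 78 to 1640 bp with a mean above 50, 52.1% were higher and 22.7% lower. PRA1.B4 gave 175, 249 and 210 with tZ, against 42.2, 32.2 and 33.4 with DMSO (2.26, SE 0.15, limma adjusted p = 3.5e-08), and PRA8 (1.61) and PRA7 (1.42) followed. The SNARE gene YKT61 gave 350, 374 and 408 with tZ, against 123, 126 and 99.8 with DMSO (1.62, adjusted p = 2.2e-08), and SEC22 was higher as well (1.12). SEC5A of the exocyst gave 125, 120 and 129 with tZ, against 250, 274 and 265 with DMSO (-1.02, adjusted p = 4.3e-08). In all 7 of 17 genes of the secretion list were higher and 6 lower. Of 15 ESCRT and vacuolar sorting genes 2 were higher and 6 lower, with VPS22 at 94.5, 98.0 and 91.1 with tZ and 320, 313 and 301 with DMSO (-1.62, adjusted p = 1.5e-09) and VPS2.1 at -1.43. The autophagy genes of the ATG8 and ATG3 list were 4 higher and 3 lower of 10, with ATG8D at 0.81 and ATG8C at -0.82.

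UBC16, a ubiquitin-conjugating enzyme, gave 178, 178 and 169 with tZ, against 52.6, 39.3 and 30.9 with DMSO (1.88, adjusted p = 5.1e-07), whereas UBC28 gave 959, 1017 and 1016 with tZ and 1866, 1626 and 1588 with DMSO (-0.75, adjusted p = 1.3e-06). Of 12 such enzymes 3 were higher and 5 lower, and of 12 ubiquitin-specific proteases 1 was higher and 6 lower. Over all probe sets 18.2% were higher and 25.4% lower, shares that apply to each list of this paragraph. RNA polymerase subunits were 2 higher and 7 lower of 12, with NRPB12 at 0.85 and NRPB6B at -0.89, and 1 was higher without DMSO replicate 2 or tZ replicates 1 or 2. The LSM proteins, which act in RNA decay and splicing, had 4 of 6 members higher and 0 lower, with a median of 0.84. Their genes had a median length of 1418 bp. Among nuclear probe sets for genes of 78 to 1640 bp with a mean above 50, 52.1% were higher. LSM6A gave 118, 132 and 143 with tZ, against 49.0, 31.2 and 54.6 with DMSO (1.38, adjusted p = 9.6e-06), and LSM1A and LSM1B were not called. ATU2AF35A, which reads the 3' splice site, gave 125, 132 and 107 with tZ, against 26.7, 18.2 and 13.3 with DMSO (2.18, adjusted p = 5.8e-08), while its relative U2AF35B was not called, at 110, 124 and 115 with tZ and 99.9, 132 and 112 with DMSO. Chromatin remodellers were 1 higher, BSH (0.70), and 5 lower of 13, or 3 lower without DMSO replicate 2 or tZ replicate 1. With centring by gene length 2 were higher and 0 lower, the lost calls including INO80 (adjusted p = 0.12), CHR18 (0.11) and CHR40 (0.22).

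**Figure D4:**
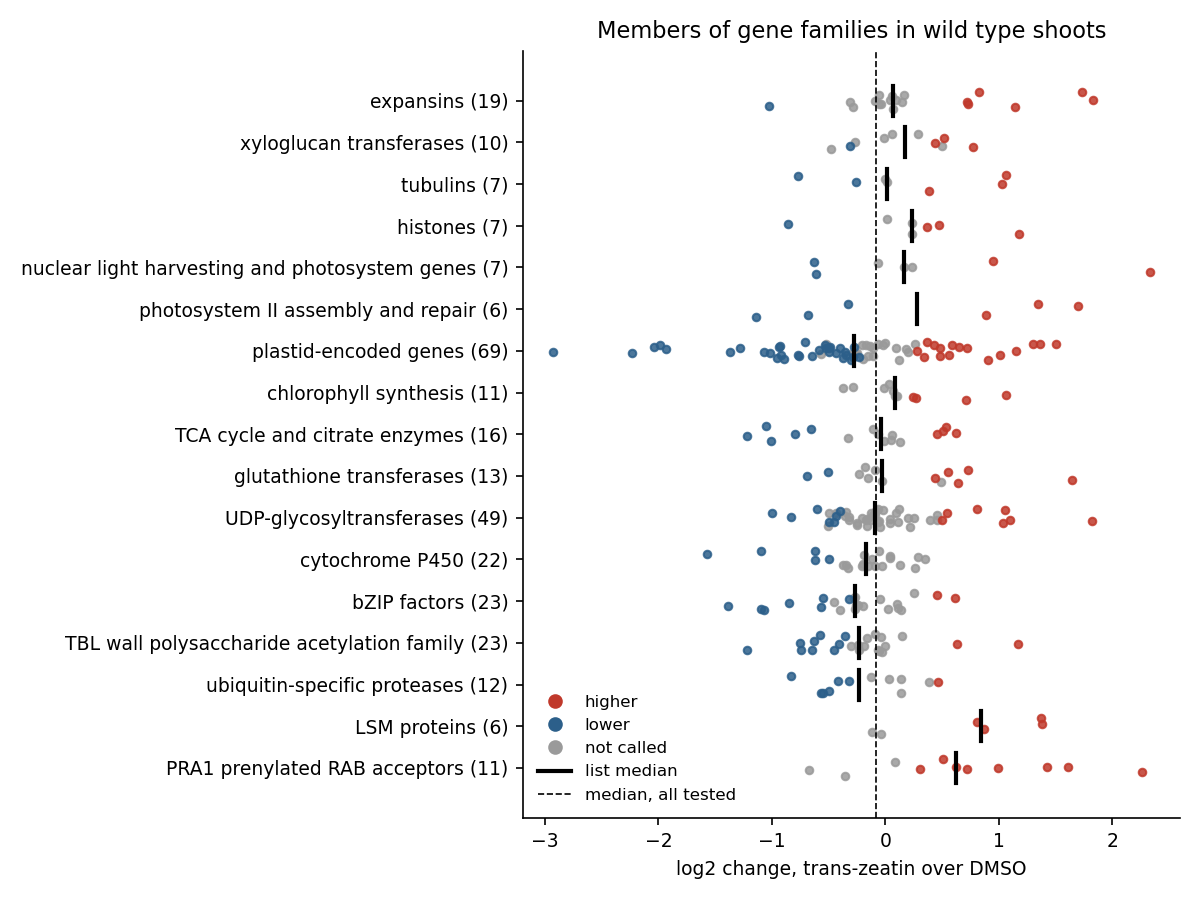
Members of 17 gene families in wild type shoots, with the number measured in brackets. Each point is the log2 change of 1 gene, tZ over DMSO, red where called higher, blue where called lower and grey where not called, with vertical jitter for legibility. Thick bars are family medians and the dashed line is the median of all tested probe sets, -0.08. The LSM and PRA1 families sit to the right of the line with medians of 0.84 and 0.62, and the plastid-encoded genes spread from -2.93 to 1.50.

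Among the highest rises, most of the genes carry only a locus identifier, so they are described by their signals. AT3G16670 gave 565, 569 and 562 with tZ, against 21.4, 40.7 and 19.1 with DMSO (4.00, limma adjusted p = 7.0e-09). AT2G27710 gave 1906, 1829 and 1678 with tZ and 277, 311 and 325 with DMSO (2.53, adjusted p = 7.0e-08). AT5G27700 gave 2488, 2189 and 2615 with tZ and 381, 546 and 352 with DMSO (2.51, adjusted p = 3.0e-06). These 3 were bright with tZ, and their lack of overlap was a condition of the choice of rises. AT1G68490 (2.50), AT5G02160 (2.49) and DAL1 (2.44) closed the 15 highest named rises. AT1G47400 gave 487, 320 and 260 with tZ, against 37.8, 59.1 and 37.5 with DMSO (2.71). AT5G15780 gave 111, 98.8 and 126 with tZ, while its 3 DMSO readings were all under the level of absent transcripts, which leaves the fold unknown.

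Among the falls AT5G40450 gave 193, 231 and 251 with tZ, against 851, 890 and 823 with DMSO (-1.89, adjusted p = 1.8e-08). AT5G54630 gave 120, 110 and 116 with tZ and 433, 414 and 456 with DMSO (-1.82, adjusted p = 1.2e-09). AT1G29270 (-1.87) and AT4G20430 (-1.75) were also among the 15 lowest. The probe sets of a gene did not always move together. AT4G16980 had 1 probe set at 21.5, 13.5 and 12.1 with tZ and 137, 144 and 133 with DMSO (-2.54), and another at 2694, 2627 and 2530 with tZ and 1447, 1404 and 1314 with DMSO (0.91). AT2G01220 likewise had 1 probe set at -1.90 and another at 0.57. Of 152 genes with several probe sets 15 had probe sets called in opposite directions, so the direction of such a gene is not settled by these arrays.

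The most changed probe sets without a gene name were comparable in size. The highest gave 253, 294 and 282 with tZ, against 6.23, 11.4 and 9.39 with DMSO (3.92, adjusted p = 4.4e-11). The lowest of all probe sets gave 16.3, 11.4 and 12.8 with tZ, against 338, 404 and 416 with DMSO (-4.08, adjusted p = 1.5e-10). In each case the dimmer group lay near the absent-control level. Unnamed probe sets were called higher in 20.6% and lower in 29.2% of cases, and those naming 1 gene in 16.6% and 23.1%.

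Some abundant transcripts kept close to the same signal. Of 538 probe sets with a mean above 500, 419 were called, and 19 had a 95% interval of the change that lay within 0.2 of 0. HEMB1, an early enzyme of chlorophyll synthesis, gave 990, 975 and 996 with tZ and 967, 941 and 985 with DMSO (0.03, 95% interval -0.08 to 0.14). TPI, a triose phosphate isomerase of glycolysis, gave 2592, 2496 and 2433 with tZ and 2318, 2556 and 2619 with DMSO (0.01, 95% interval -0.14 to 0.15). GSA1, which makes the first committed precursor of chlorophyll, gave 746, 703 and 825 with tZ and 776, 727 and 783 with DMSO (-0.01, 95% interval -0.16 to 0.14). AT5G15200, AT2G05920 and AT2G41840 completed the 6 with the narrowest bounds around 0.

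The direction of change went with the length of the annotated gene. Among 5009 probe sets for nuclear genes with a mean signal above 50, those for the shortest genes (78 to 1640 bp) were called higher in 52.1% and lower in 22.7% of cases, with a median change of 0.31. For the longest genes (3582 to 26499 bp) 12.3% were higher and 57.9% lower, with a median of -0.38. The shares in the middle bins lay in order between these. Spearman's rho between length and change was -0.339, a description across probe sets that share arrays and labelling. In the mutant, on separate arrays, rho was -0.376 and the shortest and longest bins had 54.4% and 9.58% higher. The families differed in median length, with 1016 bp for the PRA1 genes, 1418 bp for the LSM genes, 3950 bp for the ubiquitin-specific proteases and 4950 bp for the chromatin remodellers. The part of gene length, and of the 5' to 3' ratios that differ between the same arrays, in the changes of single genes was not tested. Each array was also centred within bins of gene length, an alternative chosen after seeing the data. Over the 13367 probe sets this covers, calls went from 2176 higher and 3007 lower to 2604 and 2444. Of 225 named calls 16 were lost, among them SBE2.2 of starch synthesis (limma adjusted p = 0.24), NRPC1 of RNA polymerase (0.072), the protease gene UBP19 (0.14) and the WRKY gene ZAP1 (0.17). Named calls were mostly picked for large changes, so this loss does not measure the part of gene length. With centring the ubiquitin-specific proteases had 5 higher and 3 lower, the RNA polymerase subunits 2 higher and 4 lower, the MADS-box genes 4 higher and 3 lower, and the secretion list 7 higher and 2 lower. The PRA1 genes had 8 higher and 0 lower, as without centring. The bins used for centring held probe sets of all signal levels, unlike the 5009 above. Taking off the bin medians moved the PRA1 median only from 0.62 to 0.61. The unchanged count therefore does not measure the part of gene length.

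**Figure D5:**
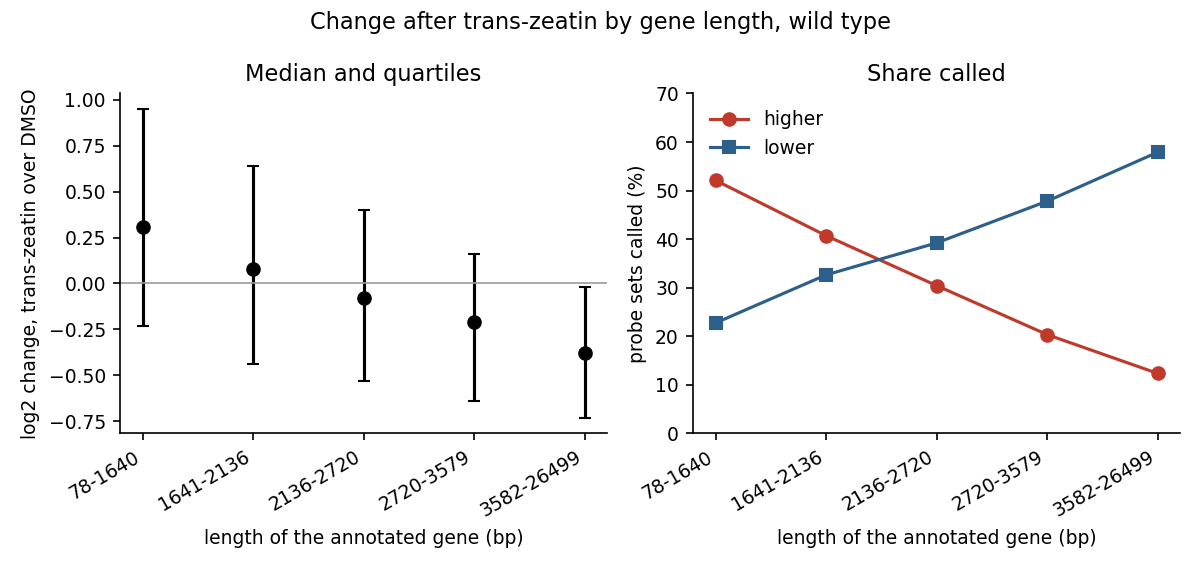
Change after trans-zeatin by length of the annotated gene, for 5009 nuclear probe sets of wild type shoots in 5 bins of nearly equal number. The left panel shows the median log2 change of tZ over DMSO with bars from the lower to the upper quartile, and the right panel the percentage called higher (red) and lower (blue). The median is 0.31 in the shortest bin and -0.38 in the longest.

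By the test of the difference, no probe set was called as particular to wild type. The response in wild type minus that in the mutant passed for 0 of 22746 probe sets (limma, adjusted over all), with 1598 (7.03%) at an unadjusted p below 0.05. Among the 377 named probe sets the smallest adjusted p, 0.054, was that of ARR16. It changed by 0.98 in wild type against 0.12 in the mutant (difference 0.86, SE 0.11). For ARR15 the changes were 4.23 and 3.00 (difference 1.23, adjusted p = 0.18). Of the 238 named probe sets called in wild type, 210 were called in the same direction in the mutant, where 42.8% of all probe sets were called, and 0 in the opposite one.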

How the data were processed

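The authors deposited 1 linear intensity per probe set of the Affymetrix ATH1 array, computed with MAS5 per the submitters' processing notes, in a version not given in the sources used here. No per-sample column was left out beyond the 64 control probe sets, which were not tested.

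Signals were analysed as log2(signal + 10) in limma 3.58.1 (R 4.3.3) with 1 mean per group over all 12 arrays, moderated variances with a trend, two-sided tests and Benjamini-Hochberg adjustment over 22746 probe sets. Control measures were compared with exact permutation tests, and Spearman's rho was computed with scipy 1.17.1. The fits were tested on simulated data in which the array sets differed only by the changes put in. That test does not cover the division seen in the control probe sets. Tables and plots were made with pandas 2.3.3 and matplotlib 3.10.9.

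The platform annotation named 1 gene for 13513 probe sets, several for 503 and none for 8730, and 13436 matched the RefSeq locus table of TAIR10.1, which gave names and gene lengths. The brightest probe set stood for a gene in list counts. The genes and lists were chosen with earlier results of these data known, and 33 of the 96 lists were drawn up after the annotation had been read. Named genes are the 15 highest rises and 15 lowest falls that name 1 gene, pass and do not overlap, all measured cytokinin genes, up to 4 called members and up to 2 bright uncalled members of each other list, the 6 steadiest bright probe sets and the extreme unnamed ones. SPCH, FAMA, the GID1 genes and the second probe sets of AT4G16980 and AT2G01220 were named after their values were seen. The number of arrays limits the precision.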

Additional observations from a re-analysis of the deposited data

How the results depend on the processing

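Over the alternative fits of the whole table the counts of higher and of lower calls kept within 1.5 times of the values given, while counts on the size of the change and of the genotype difference did not. Leaving out each wild type array in turn gave 3805 to 4011 probe sets higher and 5190 to 5711 lower, and 1965 to 2003 with a change of at least 1. That last count was 3204 with a pseudocount of 1 and 856 with a pseudocount of 50. Asking for a change of at least 1 left 1169 higher and 803 lower, 59.3% of them higher, against 41.8% higher without that demand. The genotype difference called 1 probe set with a pseudocount of 1 and 2 with a pseudocount of 50. Same-numbered arrays showed no shared deviation from their group means, with correlations of -0.055, 0.057 and -0.073, against -0.078 to 0.127 for other pairs. These correlations cannot show whether such arrays were grown or processed together. With the replicate block 4067 were higher and 5644 lower. Quantile normalization gave 4479 higher and 5282 lower. Centring within bins of gene length, chosen after seeing the data, gave 2604 higher and 2444 lower, against 2176 and 3007 for the same probe sets without it. Of 238 named probe sets called, 199 were called in every fit, 39 were lost in at least 1, and 1, SIR, changed sign with centring (0.01 in place of -0.21). Of 139 not called, 49 were called in at least 1 fit. Probe sets near the absent-control level carry no reliable fold.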
